A study of Mus musculus with 12 samples.

Results

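The 38 genes described here encode enzymes, nearly all mitochondrial, of pyruvate entry into the tricarboxylic acid (TCA) cycle, of the cycle itself and of the breakdown of the branched-chain amino acids leucine, isoleucine and valine. They were chosen by gene symbol from what their proteins do, with no measured value in the rule, and make up 38 of the 25319 genes in the count table. All 38 passed the filter on low counts and were tested among 14965 genes. By role, 6 belong to pyruvate entry, 13 to the TCA cycle, 6 to the first steps of branched-chain breakdown and their control, 5 to the leucine arm and 8 to the isoleucine, valine and propionyl-CoA arm.

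The TCA cycle oxidises acetyl-CoA made from fatty acids, pyruvate and amino acids and passes the electrons to the respiratory chain, on which the beating heart depends for its ATP. Branched-chain amino acids are transaminated, decarboxylated by the branched-chain ketoacid dehydrogenase complex and then broken down in separate arms that end in acetyl-CoA, acetoacetate or succinyl-CoA, so the pathways meet in the cycle. Reduced expression of both sets of genes is a known feature of the failing, pressure-overloaded heart.

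Poly(A) RNA was sequenced from the left ventricle in 12 C57BL/6 mice, all male, with surgery at an age of 8 weeks and sampling at 12. Sham control mice had their chest opened without narrowing of the aorta and received no dantrolene, and sham dantrolene mice had the same surgery and 30 mg per kg of dantrolene per day by mouth for 4 weeks. TAC control mice had transverse aortic constriction (TAC), in which a clip narrows the aortic arch so that the ventricle pumps against a raised pressure, and no dantrolene, while TAC dantrolene mice had both. Each group held 3 mice, and dantrolene inhibits ryanodine receptors, through which the sarcoplasmic reticulum releases calcium, and the study addressed the cardiac form, RyR2. A single dose and a single time point were sampled, and left ventricle was sequenced whole, so fewer cells of a type and less RNA per cell cannot be told apart in any value below.

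Library totals ran from 25766378 to 38363106 counts. One library of each group stood apart on the first principal component, which held 41.7% of the variance of log2 CPM (counts scaled to a common library total). These were number 3 of both sham groups and number 1 of both TAC groups. The share of counts from mitochondrially encoded genes ran from 1.71% in TAC dantrolene 2 to 22.4% in TAC control 3. Cardiomyocyte markers, 10 genes from Myh6 to Ttn, summed to 77862 to 143538 CPM over the 12 libraries. Markers of atrium, skeletal muscle and liver summed to at most 13.2, 2.93 and 1.24 CPM, and Sln, Myh1, Myh4, Tnnt3 and Apoa1 among them were too low to be tested.

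Levels between genes are compared on the FPKM scale, which divides each gene's reads by its length and by the library total. Over the 12 libraries Mdh2, the malate dehydrogenase of the mitochondrial matrix, had the highest median level of the 38 genes at 1170 FPKM. It was followed by Idh2, the NADP-linked isocitrate dehydrogenase (1047 FPKM), and Mdh1, the cytosolic malate dehydrogenase (880.5 FPKM). These 3 overlapped, since Mdh2 ranged from 947 to 1749 FPKM and Idh2 from 643 to 1750.2 FPKM. Next came Pdhb (432 FPKM), Idh3b (414 FPKM), Ogdh (371 FPKM), Idh3g (342 FPKM) and Cs (341 FPKM). At the other end stood Acadsb (3.10 FPKM), Ppm1k (2.10 FPKM) and Dbt (1.85 FPKM).

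Subunits of a single complex did not share a level. In the branched-chain ketoacid dehydrogenase, Bckdha, the E1 alpha subunit, had a median of 200.5 FPKM, Bckdhb, E1 beta, 31.5 FPKM, and Dbt, the E2 core, 1.85 FPKM. The range of Bckdha, 134 to 279 FPKM, did not touch that of Bckdhb, 20.8 to 39.2 FPKM, nor did that of Dbt, 1.00 to 4.79 FPKM. Bckdk, the kinase that switches this complex off, had a median of 46.4 FPKM against 2.10 FPKM for Ppm1k, the phosphatase that switches it on. In the NAD-linked isocitrate dehydrogenase, the catalytic subunit Idh3a had a median of 102 FPKM and the subunits Idh3b and Idh3g 414 and 342 FPKM. Both of these subunits lay above Idh3a in their whole range, which for Idh3a was 28.0 to 164 FPKM and for Idh3g, the lower of them, 202 to 450 FPKM.

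**Figure D1:**
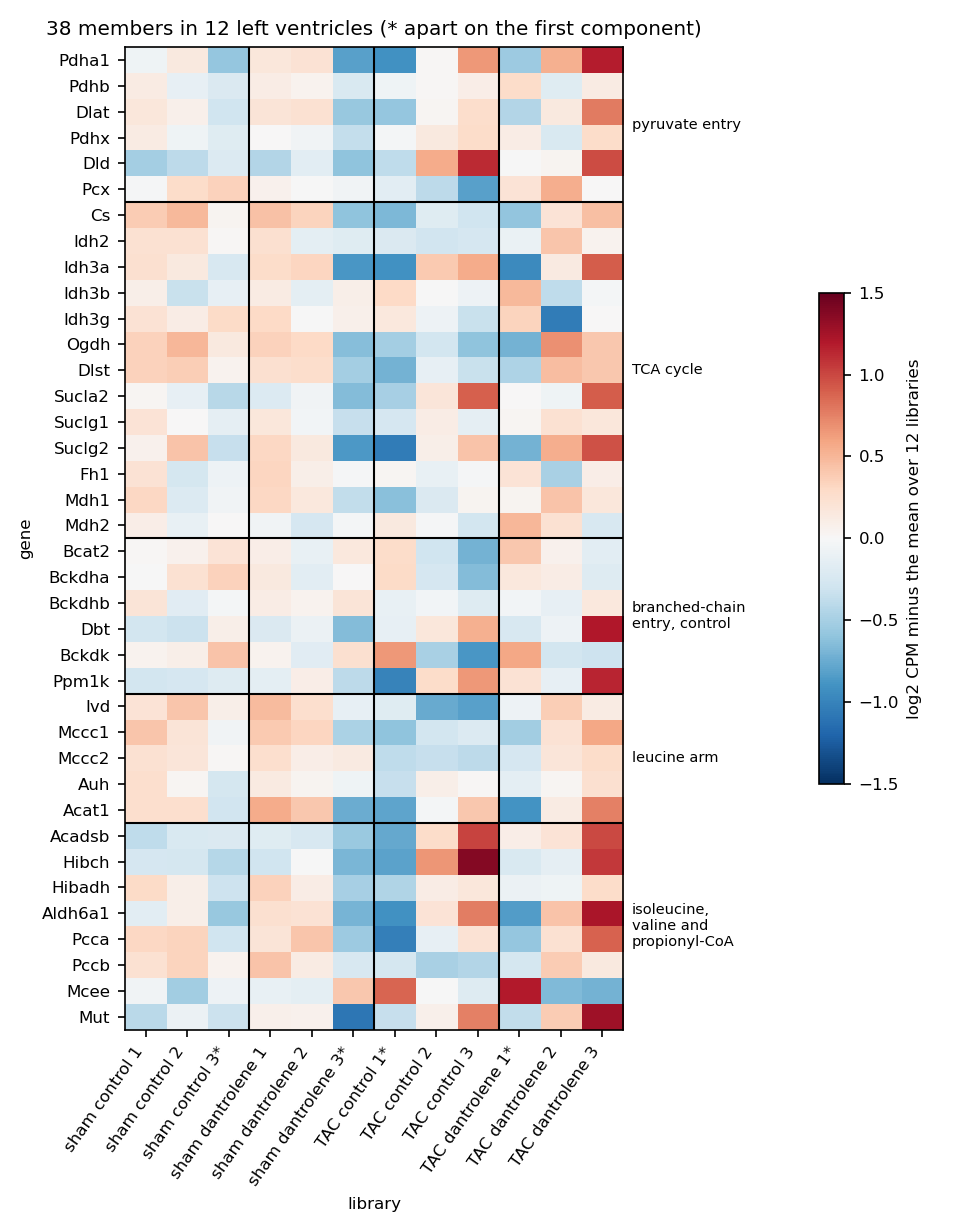
Log2 CPM of each of the 38 genes (rows, by role) minus its mean over 12 libraries (columns, by group), with red above and blue below the mean. Asterisks mark the 4 libraries apart on the first component, in which 28 of the 38 genes averaged lower than in the other 8.

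The 4 libraries that stood apart carried lower values of most of these genes, as the heat map by library shows. In them 28 of 38 genes averaged lower and 10 higher than in the remaining 8 libraries, with a median difference of -0.36 log2 CPM, against -0.08 over all genes tested, of which 53.6% were lower. For 9 of the 38 genes all 4 libraries lay below all 8 others, where 10.3% of all genes tested did so. They were Pdha1, Dlat, Idh3a, Suclg2, Acat1, Hibadh, Aldh6a1, Pcca and Auh. Of the 38, 2 lay above in all 4, Bcat2 and Bckdk, where 11.6% of all genes did. Aldh6a1, the valine arm's methylmalonate semialdehyde dehydrogenase, and Idh3a had the lowest differences, -1.13 and -1.12. Mcee, methylmalonyl-CoA epimerase, had the highest at 0.90.

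Longer genes were lower in these libraries. Over the 38 genes the difference correlated with the log2 length of the gene's exons (Pearson r = -0.54, Spearman rho = -0.55, a description across genes that share the same 12 libraries), and over 14911 genes with a length r was -0.38. The median exon length was 3.92 kb for the 38 genes and 4.13 kb for all genes tested. Because each group holds 1 such library, results are given with all 12 libraries and in part without these 4, which leaves 2 mice a group. That division was chosen after seeing the data, and the part that transcript length plays in the results was not tested. Without these 4, fold changes of single genes are given for Ivd and Ogdh alone, the 2 that passed the adjusted threshold there. Fold changes of other genes without these 4 are not given.

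**Figure D2:**
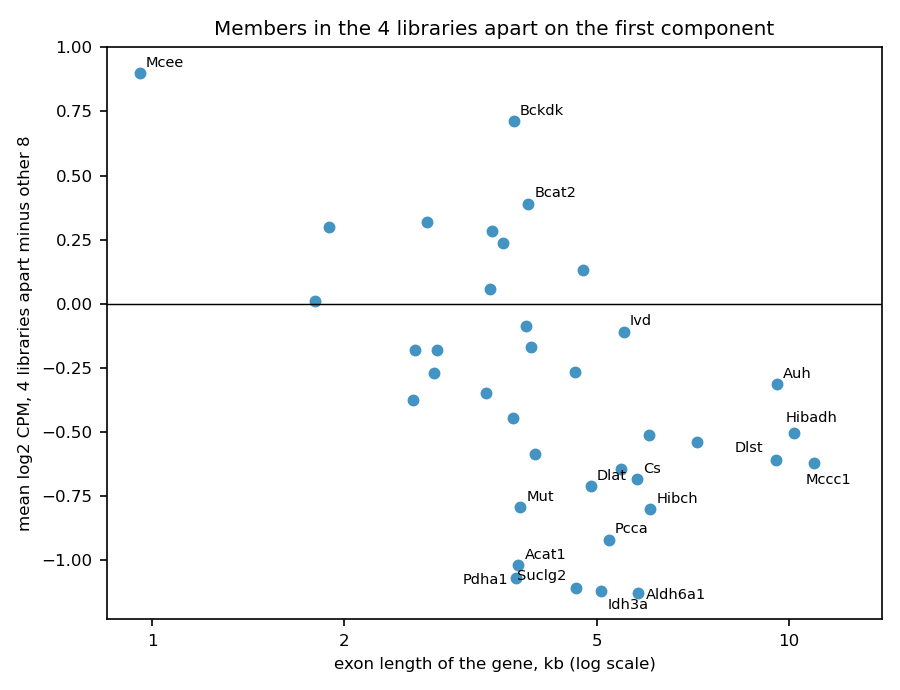
Difference in mean log2 CPM between the 4 libraries apart and the other 8 (vertical axis) against exon length in kb on a log axis, 1 point for each of the 38 genes. Mcee, at 0.956 kb the shortest, is highest at 0.90, and Aldh6a1 is lowest at -1.13.

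Pressure overload without the drug was read from TAC control against sham control. By the quasi-likelihood test of edgeR 0 of the 38 genes, and 0% of all 14965, passed an adjusted p of 0.05, and DESeq2 called 0 of the 38 too (0.477% of all genes). Most were lower in TAC control: 24 fold changes were negative and 14 positive, with a median log2 fold change of -0.10, while over all genes 57.2% were positive and the median was 0.10. At an unadjusted p under 0.05, 4 genes were lower (10.5%, against 3.80% of all genes), Ivd, Pcx, Mccc2 and Pccb, and 1 was higher (2.63%, against 4.13%), Dld. All 3 TAC control libraries lay below all 3 sham controls for 9 genes (23.7%, against 9.82% of all genes): Pcx, Cs, Idh2, Ogdh, Dlst, Ivd, Mccc1, Mccc2 and Pccb. None of the 38 lay above in all 3, as 7.54% of all genes did.

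The 2 counts at an unadjusted p rest on single libraries. The count of lower genes, 4, became 0 without sham control 2 and 0 without TAC control 3. It was 1 without TAC control 2 (368 of 15333 genes tested) and 2 without sham control 1 (374 of 15345). It rose to 7 of 38 without TAC control 1 (against 6.48% of all genes) and 7 of 38 without TAC dantrolene 1 (against 5.41%). The count of higher genes, 1, became 0 without any of sham control 1, sham control 2, TAC control 2 and TAC control 3. It was 2 without TAC dantrolene 3 (715 of 15310 genes tested) and 3 without TAC control 1 (1420 of 15302). With the 4 libraries apart left out, 12 of the 38 genes were lower at an unadjusted p under 0.05 (against 12.9% of all genes). There 3 of 38 were higher (against 11.8%), and 2 of 38 passed the adjusted threshold, Ivd and Ogdh, where 3.21% of all genes did. With a term for those libraries in the fit, 8 of 38 were lower at an unadjusted p under 0.05 (against 8.18% of all genes). In that fit 2 of 38 were higher (against 7.32%), and 0 of the 38 passed the adjusted threshold (0.14% of all genes). At its lowest the median of -0.10 was -0.20 without sham control 3 and -0.16 without TAC control 2, with 0.10 and 0.13 over all genes. At its highest it was -0.0029 without sham control 1 and -0.0022 without TAC control 1, with 0.08 and -0.0047 over all genes. In both of these highest fits 19 fold changes were positive and 19 negative.

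The leucine arm was lower in TAC control in each of its 5 genes, with a median log2 fold change of -0.52. Ivd, isovaleryl-CoA dehydrogenase, which acts just after the shared decarboxylation step of leucine, read 380, 439 and 351 CPM in sham control mice 1 to 3 and 289, 195 and 187 CPM in TAC control mice 1 to 3. Every TAC control value was below every sham control value, and TAC control 1, a library apart, was nearest to the shams. Its log2 fold change was -0.80 ± 0.28 (SE, unadjusted p = 0.0153, adjusted p = 0.536 by edgeR), and without the 4 libraries it fell, to -1.12 ± 0.20 (adjusted p = 0.0225 by edgeR, 2 mice a group).

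Mccc1 and Mccc2 encode the alpha and beta subunits of methylcrotonyl-CoA carboxylase, the biotin enzyme that follows Ivd. Mccc2 read 61.9, 60.04 and 53.5 CPM in sham control and 40.5, 41.6 and 40.2 CPM in TAC control. Mccc1 read 71.5, 61.5 and 51.5 CPM in sham control and 35.2, 44.3 and 46.7 CPM in TAC control. Both sets of values were apart, with log2 fold changes of -0.52 ± 0.21 for Mccc2 (unadjusted p = 0.0307, adjusted p = 0.582 by edgeR) and -0.55 ± 0.32 for Mccc1 (adjusted p = 0.680 by edgeR). Auh, methylglutaconyl-CoA hydratase, at -0.09 ± 0.23, and Acat1, the mitochondrial acetoacetyl-CoA thiolase, at -0.15 ± 0.46, overlapped between the groups. Acat1 read 273, 271 and 187 CPM in sham control and 132, 224 and 304 CPM in TAC control, where TAC control 3 was above every sham. Summed over the 5 genes, the leucine arm held 872, 907 and 703 CPM in sham control and 554, 583 and 651 CPM in TAC control.

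Pyruvate entry divided by enzyme. Pcx, pyruvate carboxylase, which makes oxaloacetate from pyruvate and so refills the cycle, read 39.0, 47.8 and 50.3 CPM in sham control and 35.4, 30.0 and 22.4 CPM in TAC control, with no overlap. Its log2 fold change was -0.64 ± 0.24 (unadjusted p = 0.0207, adjusted p = 0.558 by edgeR). Pdha1, the E1 alpha subunit of pyruvate dehydrogenase, which sends pyruvate to acetyl-CoA instead, read 242, 279.5 and 169.8 CPM against 134, 256 and 398 CPM. Of these 6 mice TAC control held both the lowest and the highest value, and the fold change was 0.19 ± 0.48. Dld, the E3 subunit that the pyruvate, oxoglutarate and branched-chain dehydrogenases share, read 56.8, 61.6 and 70.2 CPM in sham control and 61.9, 118 and 176 CPM in TAC control. TAC controls 2 and 3 were above all shams and TAC control 1 was among them, for a log2 fold change of 0.92 ± 0.38 (unadjusted p = 0.0304, adjusted p = 0.582 by edgeR), which was 0.52 without TAC control 3. Pdhb, Dlat and Pdhx, the E1 beta, E2 and E3-binding subunits, lay between -0.05 and 0.17.

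In the cycle, 10 of 13 genes had a negative and 3 a positive fold change, with a median of -0.14 and values from -0.79 to 0.46. Ogdh, the E1 subunit of oxoglutarate dehydrogenase, read 1988, 2215 and 1739.8 CPM in sham control and 1102, 1299 and 1036 CPM in TAC control. The groups did not overlap, and the log2 fold change was -0.79 ± 0.39 (adjusted p = 0.656 by edgeR). Without the 4 libraries Ogdh fell by 0.87 on the log2 scale, with an SE of 0.21 (adjusted p = 0.0484 by edgeR). Dlst, the E2 subunit of the same complex, read 578, 584 and 471 CPM against 277, 416 and 361 CPM, again without overlap. Its log2 fold change was -0.63 ± 0.33 (adjusted p = 0.666 by edgeR).

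Cs, citrate synthase, which brings acetyl-CoA into the cycle, read 1217, 1309 and 960.1 CPM in sham control and 585, 824 and 757 CPM in TAC control. No TAC control reached a sham control, and the log2 fold change was -0.69 ± 0.37 (adjusted p = 0.666 by edgeR). Idh2 averaged 2385 ± 197 CPM in the sham controls but 1793 ± 37.5 CPM under TAC (SD, n = 3), also without overlap. Its log2 fold change was -0.41 ± 0.29 (adjusted p = 0.736 by edgeR). The NAD-linked form did not show this separation: Idh3a, Idh3b and Idh3g had log2 fold changes of 0.08, 0.19 and -0.28 with standard errors of 0.50, 0.30 and 0.34. Sucla2, the ADP-forming subunit of succinyl-CoA ligase, had the highest fold change of the cycle, 0.46 ± 0.38. Summed over the 13 genes, the cycle held 13863, 12669 and 11823 CPM in sham control and 9935, 10676 and 10352 CPM in TAC control.

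**Figure D3:**
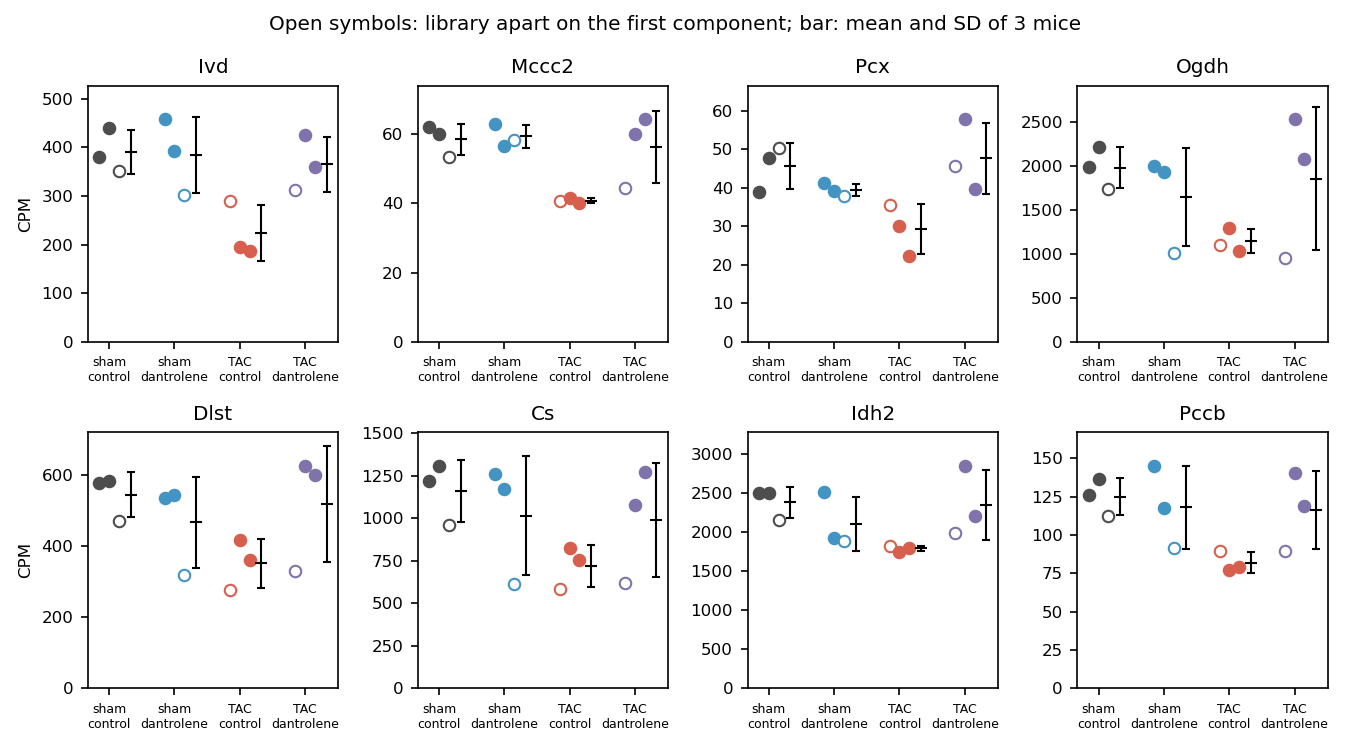
CPM of 8 genes (vertical axes from 0) in the 4 groups (horizontal axes), 1 symbol a mouse, open for the libraries apart on the first component, with the mean and SD of 3 mice beside them. The panels show 8 of the 9 genes, among all 38, in which every TAC control symbol lies below every sham control symbol.

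The first steps of branched-chain breakdown overlapped between the groups in each of their 6 genes. Bcat2, the mitochondrial branched-chain aminotransferase, read 147, 153 and 168 CPM in sham control and 177, 118 and 89.2 CPM in TAC control. Bckdha read 418, 493 and 537 CPM against 514, 352 and 267 CPM. For both genes TAC controls 2 and 3 were below all shams and TAC control 1 was not, and the log2 fold changes were -0.28 ± 0.28 and -0.35 ± 0.29. Bckdk read 155, 157 and 199.8 CPM in sham control and 233, 106 and 81.2 CPM in TAC control. Ppm1k, its counterpart, read 11.3, 11.5 and 12.1 CPM against 6.88, 16.6 and 21.6 CPM, so TAC controls 2 and 3 were outside the shams in the opposite direction.

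The ratio of the phosphatase to the kinase was also taken within each library. The log2 ratio of Ppm1k to Bckdk counts was -3.77, -3.77 and -4.05 in sham control and -5.08, -2.68 and -1.91 in TAC control. The mean difference was 0.64, with no test, and it rested on single libraries: it was -0.02 without TAC control 3, 1.57 without TAC control 1 and 1.48 without the 4 libraries apart. In sham dantrolene the ratio was -3.63, -3.17 and -4.07, and in TAC dantrolene -3.81, -3.29 and -1.99. In each group the lowest ratio was in the library apart.

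Succinyl-CoA ligase has ADP-forming and GDP-forming versions, and the log2 ratio of Sucla2 to Suclg2 counts was 0.70, 0.17 and 0.67 in sham control and 1.28, 0.83 and 1.20 in TAC control, with no overlap. It was 1.45, 0.12 and 0.69 in TAC dantrolene, which spans the range of all groups. The log2 ratio of Idh2 to Idh3a had a mean difference of -0.38 between TAC control and sham control and the ratio of Pdha1 to Pcx one of 0.74, both with no test. Without TAC control 3 they were -0.11 and 0.19, and without TAC control 1 they were -0.85 and 1.31. TAC controls 2 and 3 lay outside the sham range in both ratios, while TAC control 1 lay beyond the opposite end for Idh2 to Idh3a and inside the range for Pdha1 to Pcx.

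**Figure D4:**
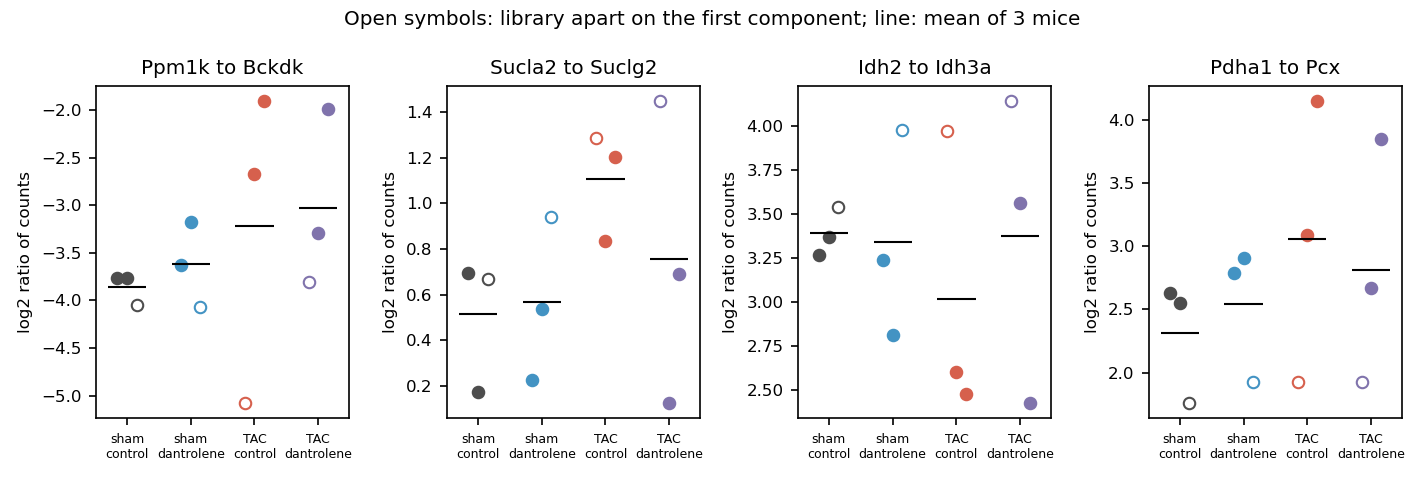
Log2 ratio of the counts of 2 genes within a library (vertical axes, which do not start at 0) in the 4 groups, 1 symbol a mouse, open for the libraries apart, with the group mean as a line. The ratio of Sucla2 to Suclg2 is above every sham control in every TAC control, and the ratio of Ppm1k to Bckdk is lowest in TAC control 1 at -5.08.

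The isoleucine, valine and propionyl-CoA arm had 5 positive and 3 negative fold changes and a median of 0.43. Hibch, the hydrolase of 3-hydroxyisobutyryl-CoA in valine breakdown, read 11.6, 11.5 and 10.2 CPM in sham control and 7.90, 21.9 and 36.0 CPM in TAC control. Acadsb, the acyl-CoA dehydrogenase of isoleucine breakdown, read 11.7, 12.98 and 13.1 CPM against 8.97, 18.4 and 30.7 CPM. In both, TAC control 1 was below and TAC controls 2 and 3 above every sham, and the log2 fold changes were 0.98 ± 0.48 and 0.62 ± 0.39. They were 0.42 and 0.12 without TAC control 3.

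Propionyl-CoA carboxylase has an alpha subunit, Pcca, and a beta subunit, Pccb, and its product is turned into succinyl-CoA by Mcee and Mut. Pccb averaged 124.9 ± 12.2 CPM in the sham controls but 81.9 ± 6.85 CPM under TAC (SD, n = 3), with no overlap and a log2 fold change of -0.61 ± 0.26 (unadjusted p = 0.0348, adjusted p = 0.599 by edgeR). Pcca read 37.9, 38.6 and 24.9 CPM in sham control and 14.96, 28.1 and 35.6 CPM in TAC control, which overlap. Mut, methylmalonyl-CoA mutase, read 9.57, 11.9 and 10.2 CPM against 9.99, 13.4 and 21.5 CPM, again overlapping, for a log2 fold change of 0.50 ± 0.44.

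Promoter sequence is shown for Ivd, Mccc2, Pcx and Ogdh, the 3 genes lowest by p in TAC control and the gene that passed with Ivd when 4 libraries were left out. RefSeq promoter windows on GRCm38.p6, 250 bases before to 50 after each start, were matched for 34 of the 38 genes by symbol, and Acat1, Dbt, Idh3a and Mut had no entry. The 150 bases just before the RefSeq start are printed 5′ to 3′ on the gene's strand, with the letters CCAAT or their reverse complement ATTGG in capitals.
Ivd: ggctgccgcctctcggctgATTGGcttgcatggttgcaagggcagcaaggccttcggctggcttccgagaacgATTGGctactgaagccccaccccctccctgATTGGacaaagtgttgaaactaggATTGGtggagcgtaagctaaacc
Mccc2: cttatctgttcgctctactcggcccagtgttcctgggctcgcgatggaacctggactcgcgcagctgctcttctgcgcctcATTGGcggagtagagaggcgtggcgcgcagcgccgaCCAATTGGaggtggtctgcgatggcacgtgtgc
Pcx: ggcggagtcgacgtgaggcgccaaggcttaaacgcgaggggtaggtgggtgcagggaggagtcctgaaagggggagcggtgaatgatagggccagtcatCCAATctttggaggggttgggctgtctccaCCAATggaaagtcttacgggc
Ogdh: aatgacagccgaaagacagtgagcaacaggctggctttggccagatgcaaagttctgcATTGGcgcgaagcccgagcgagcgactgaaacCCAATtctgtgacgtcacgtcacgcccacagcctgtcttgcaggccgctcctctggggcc
These lie at chr2:118861844-118861993 on the plus strand (Ivd), chr13:100015640-100015789 on the minus strand (Mccc2), chr19:4510322-4510471 on the plus strand (Pcx, the first of 2 windows) and chr11:6291447-6291596 on the plus strand (Ogdh, the first of 6). The genes themselves, by GENCODE vM21 on GRCm38, span 118861954 to 118882909 on chromosome 2 (Ivd, ENSMUSG00000027332.9), 99948530 to 100015639 on chromosome 13 (Mccc2, ENSMUSG00000021646.8), 4510472 to 4621752 on chromosome 19 (Pcx, ENSMUSG00000024892.13) and 6291633 to 6356642 on chromosome 11 (Ogdh, ENSMUSG00000020456.15). In the printed stretches Ivd holds 4 matches, Mccc2 3, of which 2 overlap on opposite strands, and Pcx and Ogdh 2 each. The GENCODE start of Ivd lies within its printed stretch. By GENCODE its last match, at 118861971 to 118861975, is therefore inside the gene and not before it.

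Over whole windows and on both strands, CCAAT was found in 21 of the 34 genes (61.8%), against 42.3% of 17492 coding genes, and GGGCGG, a GC box, in 22 (64.7%), against 49.2%. The letters CACCC were in 20 (58.8%), against 61.7%. AAGGTCA, the letters of an oestrogen-related receptor site, were found in 1, Ogdh (2.94%, against 4.73%), and the NRF1 site in 0 (against 1.47%). These are letter matches in a fixed window and were not tied to the expression values.

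Dantrolene under pressure overload was read from TAC dantrolene against TAC control. This comparison shares the 3 TAC control libraries with the one above, so a low value there enters both. None of the 38 genes passed the edgeR test (0 of 38, 0% of all genes) or DESeq2 (0 of 38, 0.0506% of all genes). Positive fold changes numbered 32 and negative 6, with a median of 0.23, while 51.8% of all genes were positive and the median over all genes was 0.02. At an unadjusted p under 0.05, 3 genes were higher (7.89%, against 1.78% of all genes), Pcx, Ivd and Mccc2, and 0 were lower (against 1.47%). In 5 genes every TAC dantrolene library was above every TAC control (13.2%, against 2.68% of all genes): Pcx, Idh2, Mdh1, Ivd and Mccc2. None was below in all 3 (against 2.08%).

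With the replicate number as a block within a surgery arm, 11 of the 38 genes were higher at an unadjusted p under 0.05. Of all genes 6.78% were. None passed the adjusted threshold. Those 11 were Pdha1, Pcx, Dlst, Suclg2, Mdh1, Bcat2, Ivd, Mccc1, Mccc2, Pcca and Pccb. No label pairs these mice, and the block also matches TAC control 1 with TAC dantrolene 1, both libraries apart. The unblocked count of 3 became 0 without TAC control 3, 0 without TAC dantrolene 2 and 1 without TAC control 2 (134 of 15333 genes tested). It was 7 of 38 without TAC dantrolene 1, where the share of all genes rose as well, from 1.78% to 6.52%. The median of 0.23 became 0.44 without TAC control 3 (0.05 over all genes), 0.43 without TAC dantrolene 1 (-0.04) and 0.14 without TAC control 1 (0.11). It was 0.05 without TAC dantrolene 3 (0.04 over all genes), where 23 values were positive and 15 negative. Without the 4 libraries apart it was 0.35 (0.05 over all genes). With the 4 libraries apart left out, 9 of the 38 genes were higher at an unadjusted p under 0.05 (against 12.8% of all genes). There 1 of 38, Mcee, was lower (against 9.58%), and 2 of 38 passed the adjusted threshold, Ivd and Ogdh (against 3.17%). With a term for those libraries 8 of 38 were higher at an unadjusted p under 0.05 (against 5.16% of all genes). In that fit 0 of the 38 passed the adjusted threshold (0% of all genes).

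All 5 leucine arm genes had a positive fold change, with a median of 0.46. Ivd read 289, 195 and 187 CPM in TAC control and 312, 424 and 359 CPM in TAC dantrolene, with TAC dantrolene 1 closest to the untreated mice. The log2 fold change was 0.70 ± 0.28 (unadjusted p = 0.0285, adjusted p = 1.00 by edgeR), and without the 4 libraries Ivd rose by 1.03 ± 0.20 (adjusted p = 0.0291 by edgeR). Mccc2 read 40.5, 41.6 and 40.2 CPM in TAC control and 44.5, 60.04 and 64.3 CPM with the drug, which is 0.46 ± 0.21 (unadjusted p = 0.0493, adjusted p = 1.00 by edgeR). Mccc1 read 37.3, 62.5 and 80.4 CPM in TAC dantrolene, where mouse 1 was within the TAC control range of 35.2 to 46.7 CPM. Acat1 read 123, 249.1 and 385 CPM in TAC dantrolene, which spans the whole TAC control range. The arm summed to 582, 870.1 and 975 CPM in TAC dantrolene, against at most 651 CPM in TAC control, so mouse 1 was within the untreated range.

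Pcx read 45.6, 57.7 and 39.5 CPM in TAC dantrolene, all above the highest TAC control, 35.4 CPM, for a log2 fold change of 0.70 ± 0.24 (unadjusted p = 0.0130, adjusted p = 1.00 by edgeR). It was the smallest unadjusted p among the 38 genes in either of these comparisons. Pdha1 read 173, 367 and 572 CPM and overlapped with the untreated mice (0.50 ± 0.48). Dld, the gene with a positive fold change and an unadjusted p under 0.05 under overload, read 80.7, 82.7 and 159 CPM in TAC dantrolene, between 61.9 and 176 CPM in TAC control. Its fold change was -0.14 ± 0.37, and that of Pdhx -0.07 ± 0.23. Neither sign was stable, since Dld was 0.26 without TAC control 3 and Pdhx 0.06 without TAC dantrolene 2.

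In the cycle 11 of 13 fold changes were positive, with a median of 0.23. Ogdh read 956, 2528 and 2078 CPM in TAC dantrolene: mouse 1 was below every TAC control and mice 2 and 3 were above every one. Its log2 fold change was 0.69 ± 0.39 with all libraries (adjusted p = 1.00 by edgeR), and it rose by 0.98 ± 0.21 when the 4 libraries apart were left out (adjusted p = 0.0372 by edgeR). Cs, at 618, 1077 and 1272 CPM, had mouse 1 within the TAC control range and mice 2 and 3 above it, with 0.45 ± 0.37. Idh2 read 1992, 2851 and 2203 CPM and Mdh1 2159, 2819 and 2358 CPM in TAC dantrolene. For each, all 3 were above the TAC controls, which reached 1828 and 2154 CPM, and the log2 fold changes were 0.39 ± 0.29 and 0.46 ± 0.32.

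All 6 genes of branched-chain entry were positive, between 0.12 and 0.38, and all overlapped. Bcat2 read 193, 152 and 131 CPM in TAC dantrolene (0.31 ± 0.28) and Bckdha 468, 454 and 367 CPM (0.19 ± 0.29). Bckdk read 223, 123 and 120.2 CPM and Ppm1k 15.9, 12.6 and 30.2 CPM. In this group the kinase was highest in mouse 1 and the phosphatase in mouse 3. Of the 8 genes of the remaining arm, Pccb had a log2 fold change of 0.51 ± 0.26 (unadjusted p = 0.0713), Pcca 0.51 ± 0.41 and Mut 0.35 ± 0.44. Pcca read 20.4, 35.7 and 56.3 CPM and Mut 9.84, 16.6 and 30.7 CPM in TAC dantrolene. Hibch, at 11.8, 12.6 and 28.7 CPM, had the lowest fold change of the 38 genes, -0.31 ± 0.48, which became 0.25 without TAC control 3.

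**Figure D5:**
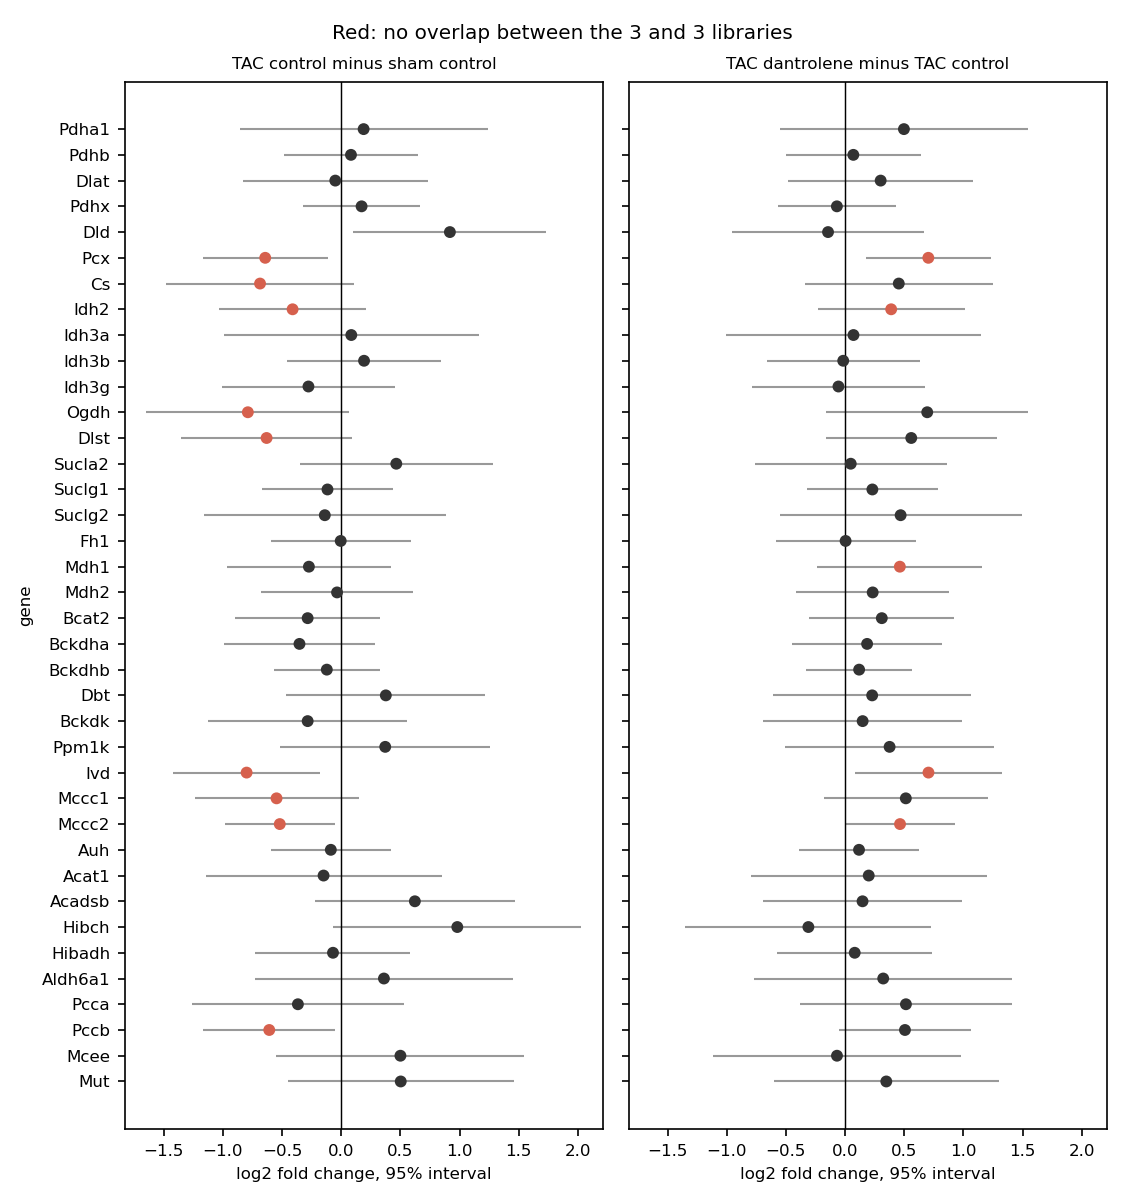
Log2 fold changes of the 38 genes with 95% intervals from the edgeR fit (horizontal axes), for TAC control minus sham control and for TAC dantrolene minus TAC control, which share the TAC control mice. Red points mark genes whose groups of 3 libraries do not overlap, 9 on the left and 5 on the right.

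The drug without overload was read from sham dantrolene against sham control. Of the 38 genes 0 passed the edgeR test (0% of all genes) and 0 passed DESeq2 (0% of all genes), and 0 had an unadjusted p under 0.05, against 0.715% of all genes. None was above (against 2.99%) or below (against 4.38%) in all 3 libraries. Fold changes ran from -0.27 (Ogdh) to 0.27 (Mcee), which were -0.01 and 0.07 without sham dantrolene 3, one of the 4 libraries apart. Of the 38 values 24 were negative and 14 positive (52.5% positive over all genes), with a median of -0.04. That median was 0.07 without sham dantrolene 3 (-0.01 over all genes), where 29 values were positive and 9 negative. It was 0.06 without all 4 (0.02 over all genes) and -0.14 without sham dantrolene 1 (0.0069). For Ivd, at 458, 393 and 303 CPM in sham dantrolene, the fold change was -0.02 with a 95% interval from -0.63 to 0.59. Pcx read 41.2, 39.1 and 37.9 CPM (-0.21 ± 0.24) and Bckdha 465, 378 and 422 CPM (-0.20 ± 0.29). Ogdh read 1999, 1928 and 1006 CPM, where mouse 3 alone was below the shams. Among the positive ones Fh1, fumarase, at 0.17 ± 0.27, Mcee, at 0.27 ± 0.48, and Bckdhb, at 0.11 ± 0.21, had the smallest p.

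The interaction asks whether the drug difference was itself different under overload. None of the 38 passed (0% of all genes by edgeR, and 0 of 38 by DESeq2, against 0.00397% of all genes). At an unadjusted p under 0.05 by edgeR there was 1 positive gene (2.63%, against 1.55% of all genes), Pcx. Its interaction was 0.92 ± 0.34 (unadjusted p = 0.0197, adjusted p = 1.00 by edgeR). By p, Ivd came next with 0.73 ± 0.40, then Ogdh with 0.96 ± 0.56 and Dlst with 0.78 ± 0.47 (unadjusted p = 0.0947, 0.108 and 0.122 by edgeR). In the other direction stood Mcee (-0.34 ± 0.68), Hibch (-0.32 ± 0.68) and Fh1 (-0.17 ± 0.39). Of the 38 values 33 were positive and 5 negative, with a median of 0.30, against 49.5% positive over all genes. The division was 29 and 9 with RLE size factors and 29 and 9 with mitochondrially encoded genes left out. It was 18 positive and 20 negative without TAC dantrolene 3, 24 and 14 without TAC control 1 and 25 and 13 without the 4 libraries apart. With the replicate block, 7 of the 38 genes were positive at an unadjusted p under 0.05, against 6.21% of all genes. Pcx, Cs, Ogdh, Dlst, Suclg2, Ivd and Pcca made up the 7. The single gene became 0 without sham control 3, 2 without TAC control 1 (582 of 15302 genes tested) and 3 without TAC dantrolene 1 (3.89% of all genes). It was 7 of 38 without the 4 libraries apart (against 7.44% of all genes) and 4 of 38 with a term for them (against 4.70%). The median became 0.14 without TAC control 1 (0.05 over all genes), 0.16 without sham dantrolene 3 (0.09) and 0.47 without TAC control 3 (0.04). It was -0.01 without TAC dantrolene 3 (-0.0066 over all genes) and 0.20 without the 4 libraries apart (0.04).

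Overload in treated mice, TAC dantrolene against sham dantrolene, gave 0 genes past the edgeR threshold (0% of all genes) or that of DESeq2 (0% of all genes), and 0 at an unadjusted p under 0.05, against 1.71% of all genes. That count was 2 higher genes without TAC control 1 (312 of 15302 genes tested), 2 without TAC control 3 (207 of 15297) and 2 without TAC dantrolene 2 (183 of 15304). It was 4 without TAC dantrolene 1 (3.21% of all genes), 4 without the 4 libraries apart (5.40%) and 5 with a term for them (3.33%). Fold changes were positive for 30 genes and negative for 8, with a median of 0.16 (59.9% positive and a median of 0.08 over all genes). The median was 0.05 without sham dantrolene 3 (0.13 over all genes) and 0.09 without TAC dantrolene 3 (0.06). It was 0.27 without sham dantrolene 1 (0.10 over all genes) and 0.07 without the 4 libraries apart (0.04). Signs were positive and negative for 25 and 13 with RLE size factors and 24 and 14 with mitochondrially encoded genes left out. Without sham dantrolene 3 they were 21 and 17, and without sham dantrolene 1 they were 34 and 4. In 2 genes (5.26%), Dld and Acadsb, all treated TAC libraries were above all treated shams, against 2.90% of all genes. None were below in all 3 (against 1.96%). Dld read 59.4, 72.1 and 53.1 CPM in sham dantrolene and 80.7, 82.7 and 159 CPM in TAC dantrolene (0.80 ± 0.38, unadjusted p = 0.0524 by edgeR). Acadsb read 13.5, 12.9 and 10.3 CPM against 16.4, 17.6 and 30.4 CPM (0.81 ± 0.39). By p, Dbt came next with 0.75 ± 0.39 (unadjusted p = 0.0791 by edgeR). Without TAC dantrolene 3 these 3 values were 0.41 for Dld, 0.48 for Acadsb and 0.14 for Dbt. Idh3g (-0.26 ± 0.34), Fh1 (-0.17 ± 0.27) and Bckdhb (-0.12 ± 0.21) had the smallest p among the negative ones. The 9 genes that were apart under overload without the drug all overlapped here. Few of all genes did not, 2.90% above and 1.96% below, and the 9 were picked by their earlier separation. Their overlap here is thus no test of the drug. Ivd was at -0.08 (95% interval -0.69 to 0.54), Mccc2 at -0.08 (-0.54 to 0.39), Cs at -0.04 (-0.83 to 0.75), Pccb at -0.02 (-0.58 to 0.54) and Mccc1 at 0.03 (-0.66 to 0.72). The remaining 4 had larger positive values, Dlst at 0.15 (-0.57 to 0.87), Idh2 at 0.16 (-0.46 to 0.78), Ogdh at 0.17 (-0.68 to 1.03) and Pcx at 0.27 (-0.25 to 0.80).

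Another 45 genes of the same pathways and of their regulators gave 0 calls by edgeR in all 5 comparisons. Under overload 32 of them were lower and 13 higher, where 57.2% of all genes were higher. At an unadjusted p under 0.05, 1 of the 45 was lower (against 3.80% of all genes). Of the 45, 10 lay below all shams (against 9.82% of all genes) and 2 above (against 7.54%). The 1 was Klf15, a Krüppel-like transcription factor that in heart muscle is known to activate branched-chain catabolic genes. It read 38.7, 63.7 and 48.9 CPM in sham control and 19.2, 22.7 and 28.1 CPM in TAC control, without overlap, a log2 fold change of -1.11 ± 0.32 (unadjusted p = 0.0044, adjusted p = 0.474 by edgeR). In treated mice it read 22.9, 32.0 and 36.5 CPM under sham and 25.5, 41.4 and 54.4 CPM under TAC. Klf15 was below sham control in all sham dantrolene mice, as none of the 38 genes was (-0.73 ± 0.32, unadjusted p = 0.0406, adjusted p = 1.00 by edgeR), and its drug difference under TAC was 0.79 ± 0.32 (unadjusted p = 0.0278, adjusted p = 1.00 by edgeR). The interaction for Klf15 was 1.52 ± 0.45 (unadjusted p = 0.00525, adjusted p = 1.00 by edgeR).

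Under overload the smallest p after Klf15 belonged to Me3, a mitochondrial malic enzyme (-0.47 ± 0.22), and among higher genes to Bcat1, the cytosolic aminotransferase (0.70 ± 0.38), and Mpc1, a subunit of the mitochondrial pyruvate carrier (0.72 ± 0.41). Mpc1 read 731, 536 and 575 CPM in sham control and 1360.2, 765 and 918 CPM in TAC control, the reverse of Pcx. With dantrolene under TAC, 35 of the 45 were higher and 10 lower (51.8% higher over all genes), 3 were higher at an unadjusted p under 0.05 (against 1.78%) and 4 lay above all TAC controls (against 2.68%). Pdpr, the regulatory subunit of pyruvate dehydrogenase phosphatase, read 5.64, 6.39 and 7.67 CPM in TAC control and 5.02, 27.8 and 25.6 CPM in TAC dantrolene (1.57 ± 0.59, unadjusted p = 0.0208, adjusted p = 1.00 by edgeR), so mouse 1 was below the untreated mice. Lower ones were Pck2 (-0.40 ± 0.28) and Mpc2 (-0.28 ± 0.26). In sham mice Pdk4, the kinase that inhibits pyruvate dehydrogenase, had a drug difference of 1.30 ± 0.78 with overlapping groups. Ppargc1a, a coactivator of mitochondrial genes, read 9.05, 9.27 and 5.83 CPM in sham dantrolene and 14.5, 18.6 and 21.5 CPM in TAC dantrolene (1.18 ± 0.32, unadjusted p = 0.00293, adjusted p = 1.00 by edgeR).

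Markers of other cells and transcripts moved beside these values. Cardiomyocyte markers were higher for 5 and lower for 5 of 10 genes in TAC control. They summed to 77862 to 134588 CPM there, 81031 to 95012 CPM in sham control and 78680 to 143538 CPM in TAC dantrolene. The highest TAC sums were in TAC control 1 and TAC dantrolene 1, libraries apart, where Mb alone held 80024 and 81097 CPM. Mb held 24592 and 20904 CPM in TAC controls 2 and 3 and 22663 to 34168 CPM in sham control. All 6 fibroblast markers had a positive fold change in TAC control, where they summed to 404 to 1423 CPM, against 438 to 569.6 CPM in sham control and 387 to 719.9 CPM in TAC dantrolene. All 13 mitochondrially encoded mRNAs were positive under overload and negative with dantrolene under TAC, and they summed to 67686 to 85886 CPM in sham control, 132955 to 216291 CPM in TAC control and 12820.4 to 144932 CPM in TAC dantrolene. With those genes left out of the totals, 4 of the 38 genes were lower under overload at an unadjusted p under 0.05 (612 of 14906 genes tested). There was 1 higher (577), and with dantrolene under TAC 2 were higher (204). Macrophage markers were positive for 5 of 6 genes, endothelial for 5 of 6, epicardial for 4 of 4 and fat for 2 of 3 under overload. Epicardial markers summed to 4.09 to 31.7 CPM in TAC control and 1.17 to 2.48 CPM in sham control. The part of these in the results was not tested.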

How the data were processed

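Counts from left ventricle RNA of 12 mice were analysed, with groups and replicate numbers taken from the sample titles. The authors deposited raw counts per gene, without normalisation, for 25319 genes per the file headers, and a table of FPKM values, scaled by them to gene length and library size, for 25258 genes. Named in the submitters' processing notes, with no version or role, are bcl2fastq, TopHat2, edgeR and GRCm38. Libraries were directional and selected for poly(A) RNA per the labels' protocols. How reads were counted, and with which annotation and strand rule, was not given in the sources used here, so overlapping genes and near-identical copies may share reads. All value columns matched a sample (0 did not), and 1 row had an identifier and no symbol.

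The 38 genes, the 45 other pathway genes and the marker lists (cardiomyocyte, fibroblast, macrophage, endothelial, epicardial, atrial, fat, skeletal muscle, liver and mitochondrially encoded) were chosen with earlier results of these data known. Genes named with values were 13 entry or control steps picked by role and, in each comparison, the 3 of the 38 with the smallest unadjusted p in each direction (2 for other pathway genes). Idh2, Mdh1, Dlst, Sucla2, Pccb, Aldh6a1, Idh3a, Suclg2 and the members of counted sets were named beyond that rule, after their values were seen.

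Counts were fitted with edgeR 4.0.16 in R 4.3.3: filterByExpr (minimum count 10, minimum total 15; 0.0418% of counts removed), TMM scaling, and a robust quasi-likelihood fit of 4 group means to all 12 libraries with 8 residual degrees of freedom. Tests were two-sided, with Benjamini-Hochberg adjustment over 14965 genes and a threshold of 0.05. The values called CPM are counts scaled to a common TMM-adjusted library total. Unadjusted p-values are descriptions. The common biological coefficient of variation was 0.443. The overload test was also run on simulated counts with the means, library sizes and spread of these libraries, taken from the fit. It called 4.55% of 67 genes changed 2-fold and 53.6% of 69 genes changed 4-fold. Exon lengths and coordinates came from GENCODE vM21 on GRCm38, matched by identifier for 25116 genes.

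Each library is a separate mouse, and libraries of a group differed beyond sampling noise (chi-square per gene of at least 32.5). Departures from the group mean in same-numbered mice had correlations of 0.465, 0.366 and 0.672 between control and dantrolene within sham and 0.556, 0.300 and 0.613 within TAC. All exceed 0.1, so the numbers were taken to pair mice in the drug comparisons. The libraries apart were number 3 in both sham groups and number 1 in both TAC groups. Same-numbered mice within an arm therefore share that status, and the check cannot tell pairing from it. No label used here ties a number to a litter or day, and differently numbered mice correlated by up to 0.375: sham control 2 did so with sham dantrolene 1, above the 0.366 with its own number. Between sham and TAC they did not (-0.294, 0.283 and -0.304 in controls). Alternatives were RLE size factors, no filter, mitochondrially encoded genes left out, DESeq2 1.42.0, a replicate block and each library left out. Leaving out the 4 libraries apart, or fitting a term for them, was added after seeing the data.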

Additional observations from a re-analysis of the deposited data

How the results depend on the processing

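With 3 mice a group and a biological coefficient of variation of 0.443, values that miss the threshold do not show that groups were alike. Leaving out each of 12 libraries in turn gave 0 of the 38 genes called in all 5 comparisons, from a lowest of 0 to a highest of 0, as did RLE size factors, no filter, mitochondrially encoded genes left out and DESeq2. Without the 4 libraries apart, a choice made after seeing the data that leaves 2 mice a group, 2 genes were called under overload and 2 with dantrolene under TAC. With a term for those libraries the count was 0.

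With the replicate block, 0 of the 38 genes were called in any comparison. Genes higher at an unadjusted p under 0.05 went from 3 to 11 with dantrolene under TAC and from 1 to 7 in the interaction, and the block moved no other count of the 38 by over 1.5 times. For the overload comparisons the numbers were not taken to pair the mice. There the block gave 4 lower (574 of 14965 genes tested) and 1 higher (571) without the drug.

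Without a filter, 2 genes were lower (575 of 25319 genes tested) and 2 higher (711) at an unadjusted p under 0.05 under overload. For overload in treated mice 1 was higher (208 of 25319). Under overload single libraries moved the lower count between 0 and 7 and the higher count between 0 and 3. With dantrolene under TAC the higher count ran from 0 to 7.

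The check covered 30 values, those of the 3 genes with the smallest unadjusted p in each direction of each comparison. Of these 30, the following changed sign when a library was left out. With dantrolene under TAC, Hibch ran from -0.85 to 0.25, which was without TAC control 3. Dld ran from -0.54 to 0.26, with 0.26 without TAC control 3, 0.00650 without TAC dantrolene 1 and 0.014 without TAC dantrolene 2. Pdhx ran from -0.18 to 0.059, with 0.00652 without TAC control 3 and 0.059 without TAC dantrolene 2. For overload in treated mice, Idh3g ran from -0.60 to 0.049 and Fh1 from -0.35 to 0.013, both positive without TAC dantrolene 2. In the interaction, Mcee ran from -1.28 to 0.064 (without TAC control 1), Hibch from -0.85 to 0.24 (without TAC control 3) and Fh1 from -0.33 to 0.021 (without TAC dantrolene 2). The cause was not tested. None of these 30 values changed sign under the other settings run. Values of genes named by role alone, or beyond the rule, were not part of this check. Of 16 differences of ratios, 10 changed sign when a single library was left out. Ppm1k to Bckdk went from 0.64 to -0.02 under overload (without TAC control 3) and from 0.19 to -0.74 with dantrolene under TAC (without TAC control 1). Sucla2 to Suclg2 changed sign with the drug in sham and for overload in treated mice, and both Idh2 to Idh3a and Pdha1 to Pcx did so in each comparison but overload without the drug.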
